A study of Mus musculus with 62 samples.

Results

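The 9 genes described here encode the machinery by which a cell shows fragments of its own proteins on major histocompatibility complex (MHC) class I molecules. They were taken by name from the deposited gene tables: H2-K1, H2-D1, B2m, Tap1, Tap2, Tapbp, Psmb8, Psmb9 and Nlrc5. Each matched 1 gene identifier of the 53975 in the tables. As background, proteasomes cut proteins into peptides, and the inducible subunits encoded by Psmb8 and Psmb9 replace constitutive ones to form the immunoproteasome. The Tap1 and Tap2 proteins pump the peptides into the endoplasmic reticulum, where tapasin (Tapbp) holds the transporter beside an empty class I molecule. That molecule is a heavy chain (H2-K1 or H2-D1 in C57BL/6 mice) paired with the light chain beta-2 microglobulin (B2m), and Nlrc5 is a transcriptional activator of these genes. Interferons induce the whole set in many cell types, and in brain the level is known to be higher in microglia and endothelium than in most neurons.

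Long RNA was measured in 17 hippocampus libraries, each from the hippocampi of both hemispheres of 1 mouse. APP NL-G-F mice, called APP below and a transgenic model in the series text, are known as a knock-in line: they carry in their own App gene a humanised amyloid beta sequence with familial Alzheimer mutations, so that the allele is under the native promoter; 3 were studied at each of 3, 6 and 12 months. The controls, labelled Ctrl, were C57BL/6J mice: 2 at 3 months and 3 at each of 6 and 12 months. The series text places 3 months before symptoms, 6 months at plaque appearance and 12 months at the terminal stage. A further 14 libraries came from HT-22, a mouse hippocampal cell line, at passage 4. These cells received for 24 h a locked nucleic acid (LNA) oligonucleotide named anti-HSF1 at 150 nM or a scramble LNA, which the labels give as 50 uM. They were then given 30 uM of the amyloid beta peptide named 42 or of a peptide of inverted sequence named R; 4 libraries were made for each peptide with scramble and 3 with anti-HSF1. The unit below is scaled TPM, a level normalised for gene length and library total (transcripts per unit of library) after a scaling that puts the typical gene at 1 level in every library of a system.

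Relative depth ran from 1.42 to 3.04 in hippocampus and from 0.724 to 2.60 in HT-22 libraries, and replicates of a group correlated across genes at 0.967 to 0.987. Each of 4 hippocampal markers (Prox1, Wfs1, Zbtb20, Neurod6) and 6 neuronal markers had a mean of at least 1 in every mouse group. In HT-22 cells Prox1 and Neurod6 were listed at 0, whereas Wfs1 and Zbtb20 had a mean of at least 1 in every group. The 4 hippocampal markers summed to 28.9 to 66.9 scaled TPM there. The neuronal genes Rbfox3, Snap25, Syt1 and Gad1 were also listed at 0, and the 6 neuronal markers summed to at most 0.537. Sex is not in the labels. Xist was at 70.6 to 137 in all 9 APP and at 90.7 to 92.2 in both Ctrl libraries of 3 months, and below 0.53 in the Ctrl libraries of 6 and 12 months, which held 4 Y-linked genes. APP against Ctrl at 6 and 12 months therefore also compares Xist-expressing with Y-expressing libraries, as does the strain by age interaction in part, and strain and sex cannot be told apart there. In APP 12 against 3 or 6 months and in APP against Ctrl at 3 months, all libraries expressed Xist. In bulk tissue, fewer cells of a type and less RNA per cell cannot be told apart.

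Of the 9 genes, 7 lie on chromosome 17 (GRCm38 coordinates as deposited) within the MHC region: H2-K1 (ENSMUSG00000061232, chr17:33996017-34000333, minus strand), Tapbp (ENSMUSG00000024308, chr17:33915899-33929288, plus strand), Psmb9 (ENSMUSG00000096727, chr17:34181988-34187764, minus strand), Tap1 (ENSMUSG00000037321, chr17:34187553-34197225, plus strand), Psmb8 (ENSMUSG00000024338, chr17:34197721-34201454, plus strand), Tap2 (ENSMUSG00000024339, chr17:34203527-34216321, plus strand) and H2-D1 (ENSMUSG00000073411, chr17:35262730-35267499, plus strand). B2m (ENSMUSG00000060802, chr2:122147686-122153083, plus strand) and Nlrc5 (ENSMUSG00000074151, chr8:94434356-94527272, plus strand) lie elsewhere. Tap1 and Psmb9 overlap head to head by 212 bases on opposite strands, and 495 bases separate the end of Tap1 from the start of Psmb8. The antisense gene Patl2 spans all 5398 bases of B2m, and Tapbp overlaps Zbtb22 on its own strand. The sources do not give whether reads were assigned by strand, so reads of overlapping genes cannot be told apart. The heavy chains have near-identical relatives: 9.63% of the 50-base words in H2-K1 transcripts and 12.8% of those in H2-D1 also occur in other genes (H2-Q10, H2-Q1, H2-Q7 and each other), so the share of reads divided between them is uncertain. The other 7 members share at most 2.87% of such words.

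RefSeq promoter windows (GRCm38.p6, 250 bases before to 50 after each start) were held for 7 of the 9 members, with Tap2 and Nlrc5 unmatched. The 250 bases before the start are printed 5′ to 3′ for both heavy chains, the light chain and Tap1 as examples of the 3 kinds of subunit with at least 1 matched motif. Capitals mark matches, on either strand, to CCAAT (the Y box), TGACG (the half-site of the cyclic AMP response element), a kappaB motif (GGG and TTCCC with any 2 bases between) and the core of the interferon-stimulated response element (GAAA and GAAA with any 2 bases between). The H2-K1 run precedes the RefSeq start that coincides with the deposited one.
H2-K1 (chr17:34000334-34000583, minus strand): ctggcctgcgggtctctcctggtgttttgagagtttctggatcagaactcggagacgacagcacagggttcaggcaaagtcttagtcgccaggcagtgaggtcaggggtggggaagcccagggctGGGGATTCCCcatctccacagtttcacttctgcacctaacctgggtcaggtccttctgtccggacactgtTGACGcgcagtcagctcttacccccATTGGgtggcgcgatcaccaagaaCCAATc
H2-D1 (chr17:35262844-35263093, plus strand): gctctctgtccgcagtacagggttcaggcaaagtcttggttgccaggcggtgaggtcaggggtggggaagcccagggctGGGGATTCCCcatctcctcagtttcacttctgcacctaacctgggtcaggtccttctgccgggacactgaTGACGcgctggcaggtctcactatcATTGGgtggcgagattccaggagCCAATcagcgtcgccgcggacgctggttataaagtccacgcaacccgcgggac
B2m (chr2:122147437-122147686, plus strand): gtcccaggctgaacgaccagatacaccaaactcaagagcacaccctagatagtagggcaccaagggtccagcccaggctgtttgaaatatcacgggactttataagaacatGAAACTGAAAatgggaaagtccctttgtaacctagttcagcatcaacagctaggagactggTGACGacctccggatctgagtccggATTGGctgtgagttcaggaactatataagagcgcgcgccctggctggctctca
Tap1 (chr17:34187306-34187555, plus strand): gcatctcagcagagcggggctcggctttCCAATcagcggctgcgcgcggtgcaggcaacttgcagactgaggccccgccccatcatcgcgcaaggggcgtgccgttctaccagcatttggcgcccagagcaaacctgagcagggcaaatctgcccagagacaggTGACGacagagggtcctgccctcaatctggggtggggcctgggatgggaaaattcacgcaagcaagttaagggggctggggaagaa
CCAAT was found in 6 of the 7 matched members and in 37.4% of all 32851 windows of this length. TGACG was found in 5 of 7 (all printed genes and Psmb9), against 20.8% of windows. The kappaB motif was found in H2-K1 and H2-D1, against 1.75% of windows, and the interferon motif in B2m, against 3.44%. In both heavy chain runs the matches stand in the same order, with kappaB first, then TGACG and then the Y box in each orientation, and in an alignment of the 2 runs with free ends 177 of 203 aligned bases (87.2%) were identical, beside 94 positions set against a gap or beyond the other run's end. The Psmb8 window held no match of the 4 motifs. RefSeq windows of H2-D1, Tapbp, Psmb8 and Psmb9 lie within the deposited gene, so the bases before those deposited starts were not searched. Windows of Tap1 and Psmb9 share 275 bases on opposite strands, so their matches are in part the same letters. A match is a description of the letters, not a site shown to be bound. Only these patterns were searched, so a window without a match may still hold a variant of the element.

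The heavy chain genes H2-K1 and H2-D1 were highest in APP mice at 12 months. H2-K1 stood at 43.5, 18.2 and 21.4 scaled TPM in the 3 APP libraries of 12 months and at 9.36, 10.0 and 10.6 in the Ctrl libraries of that age. The ranges did not overlap, and the means of 27.7 ± 13.8 (SD, n = 3) and 9.99 ± 0.61 (SD, n = 3) differed 2.77-fold. The log2 change in scaled TPM + 1, the scale of all changes below, was 1.29 (SE 0.27, adjusted p = 0.0627) by limma, short of the threshold of 0.05. H2-D1 stood at 57.8, 30.4 and 29.5 in APP and 9.91, 14.5 and 12.8 in Ctrl mice of 12 months, again apart, with means of 39.2 ± 16.1 (SD, n = 3) and 12.4 ± 2.33 (SD, n = 3). This 3.16-fold difference gave a log2 change of 1.53 (SE 0.30, adjusted p = 0.0304) and H2-D1 rose.

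Within APP mice both heavy chains rose with age. At 3 months H2-K1 was 7.84, 7.03 and 6.63 and H2-D1 7.32, 11.7 and 8.83; at 6 months H2-K1 was 7.09, 14.5 and 7.23 and H2-D1 9.95, 20.2 and 8.35. In each gene APP replicate 2 of 6 months was the highest of its group, and all 3 libraries of 12 months lay above it. From 3 to 12 months the log2 change was 1.72 (SE 0.27, adjusted p = 0.00417) for H2-K1 and 1.92 (SE 0.30, adjusted p = 0.00345) for H2-D1. From 6 to 12 months it was 1.41 (SE 0.27, adjusted p = 0.04) and 1.57 (SE 0.30, adjusted p = 0.0334). In Ctrl mice H2-K1 was 6.19 and 5.93 at 3 months and 10.1, 7.13 and 8.12 at 6 months, and H2-D1 was 6.43 and 6.33 and 10.9, 7.42 and 10.2. Ctrl groups of 6 and 12 months overlapped in both genes. The ratio of H2-D1 to H2-K1 ran from 1.33 to 1.67 in APP mice of 12 months and from 0.932 to 1.66 in the other hippocampus libraries.

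**Figure D1:**
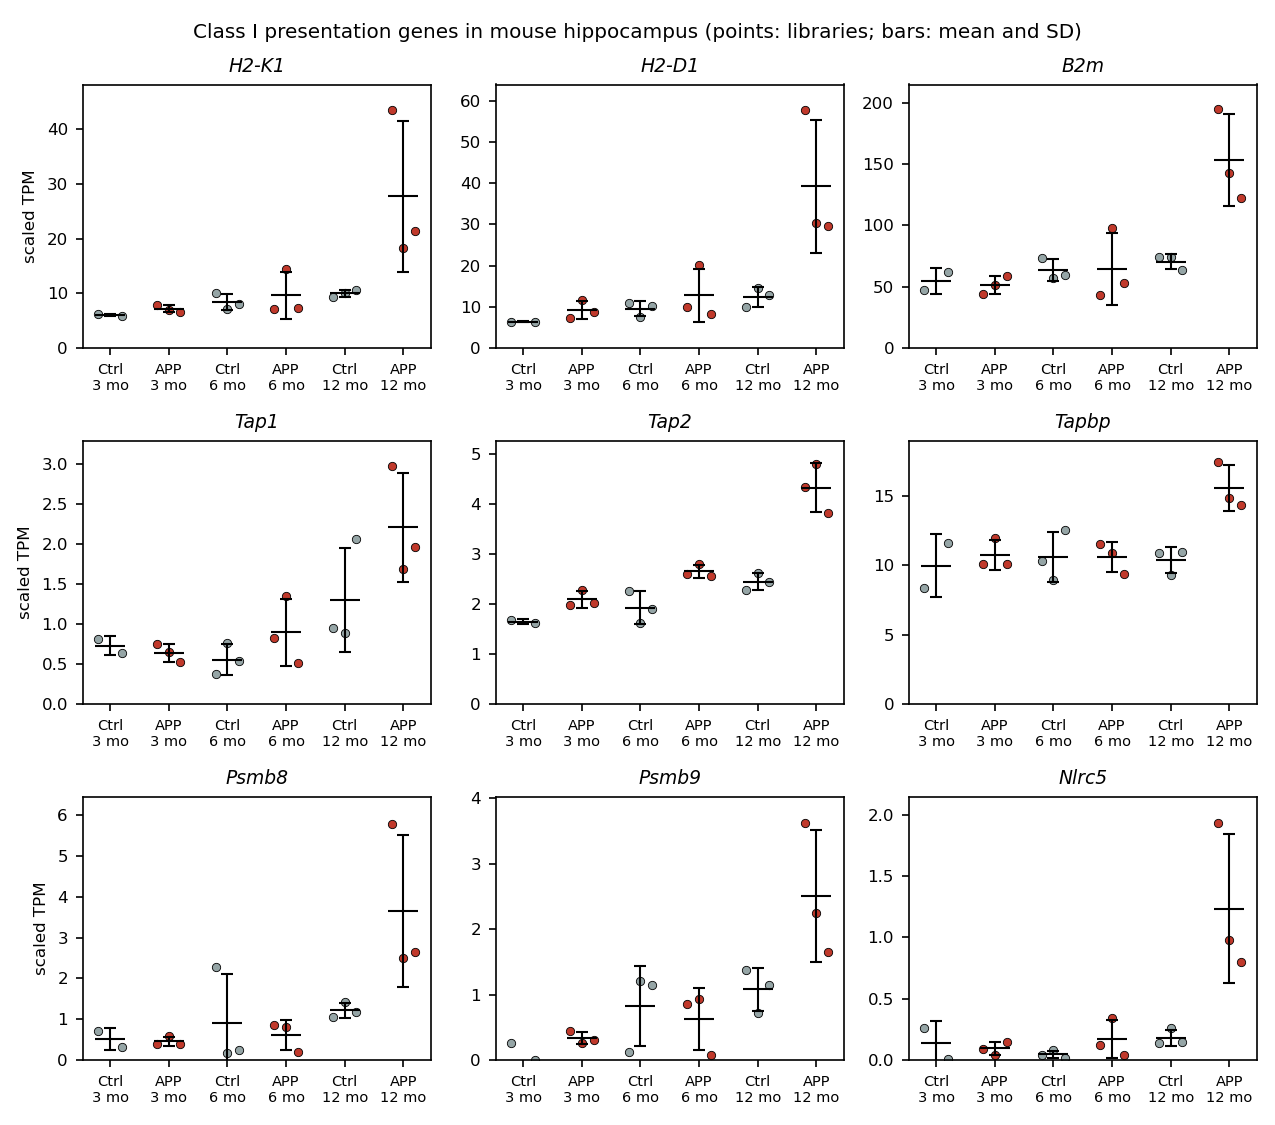
Scaled TPM of the 9 genes (vertical axes from 0, 1 panel a gene) in each hippocampus library, by strain and age in months (mo). Points are libraries, red for APP and grey for Ctrl; bars give mean and SD where no library is at 0. APP mice of 12 months lie above all other libraries in 8 of the 9 panels, and in Tap1 1 Ctrl library of 12 months at 2.06 lies within their range.

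B2m encodes the light chain that all class I molecules share, and it was the most abundant member. It stood at 195, 143 and 122 scaled TPM in APP mice of 12 months and at 74.1, 74.1 and 63.3 in Ctrl mice, a 2.18-fold difference of means of 154 ± 37.3 (SD, n = 3) and 70.5 ± 6.24 (SD, n = 3). The groups did not overlap, but the log2 change of 1.09 (SE 0.25, adjusted p = 0.0837) did not pass the test. In APP mice B2m was 44.1, 51.1 and 58.6 at 3 months and 43.1, 98.3 and 52.9 at 6 months, and it rose to 12 months by 1.54 (SE 0.25, adjusted p = 0.00405) and 1.29 (SE 0.25, adjusted p = 0.0342). APP replicate 2 of 6 months again stood apart from its 2 companions. Ctrl libraries held 47.1 and 62.3 at 3 months and 73.7, 57.1 and 59.7 at 6 months, overlapping with those of 12 months. The ratio of B2m to the sum of both heavy chains was 2.42 ± 0.510 (SD, n = 3) in APP mice of 12 months and 3.19 ± 0.587 (SD, n = 3) in Ctrl mice, with ranges of 1.92 to 2.94 and 2.71 to 3.84 that overlapped.

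Of the peptide transporter subunits, Tap2 rose with age in APP mice in narrow groups, and Tap1 rose from a low level. Tap2 stood at 4.35, 4.8 and 3.82 scaled TPM in APP mice of 12 months and at 2.28, 2.63 and 2.44 in Ctrl mice. The groups were apart, at a 1.76-fold difference of means and a log2 change of 0.62 (SE 0.13, adjusted p = 0.0646). In APP mice Tap2 was 1.97, 2.28 and 2.02 at 3 months and 2.59, 2.8 and 2.56 at 6 months, narrow groups below all libraries of 12 months. Tap2 rose from 3 to 12 months by 0.78 (SE 0.13, adjusted p = 0.00592), and from 6 months the change was 0.54 (SE 0.13, adjusted p = 0.104). At 6 months, too, its APP libraries lay above the Ctrl values of 2.27, 1.61 and 1.9, with a log2 change of 0.32 (SE 0.13, adjusted p = 0.231).

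Tap1 stood at 2.98, 1.69 and 1.96 in APP and 0.95, 0.893 and 2.06 in Ctrl mice of 12 months. Ctrl replicate 3 lay within the APP range, and the log2 change was 0.50 (SE 0.23, adjusted p = 0.707). In APP mice Tap1 was 0.755, 0.646 and 0.53 at 3 months and 0.831, 1.35 and 0.518 at 6 months, and it rose from 3 to 12 months by 0.95 (SE 0.23, adjusted p = 0.0385). Ctrl mice held 0.81 and 0.644 at 3 months and 0.37, 0.757 and 0.542 at 6 months. Without the APP libraries of 12 months its mean was below 1, so Tap1 entered the test through that group.

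Tapbp, the tapasin gene, was even across the other groups and higher in APP mice of 12 months. It stood there at 17.4, 14.8 and 14.4 against 10.9, 9.27 and 10.9 in Ctrl mice, a 1.5-fold difference of means with no overlap. The log2 changes were 0.54 (SE 0.14, adjusted p = 0.186) against Ctrl, 0.50 (SE 0.14, adjusted p = 0.0787) against APP of 3 months and 0.51 (SE 0.14, adjusted p = 0.16) against APP of 6 months, none past the threshold. The 14 libraries of the other groups ran from 8.37 to 12.5.

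The immunoproteasome genes were low, with a mean read depth over Psmb8 of 1.96 to 4.08 in APP and 0.680 to 0.932 in Ctrl mice of 12 months, against 152 to 233 and 61.5 to 81.9 over B2m. Psmb8 stood at 5.79, 2.51 and 2.65 scaled TPM in APP mice of 12 months and 1.063, 1.42 and 1.177 in Ctrl mice, apart and 2.99-fold different in mean, with a log2 change of 1.00 (SE 0.35, adjusted p = 0.46). In APP mice it was 0.398, 0.58 and 0.398 at 3 months and 0.851, 0.803 and 0.196 at 6 months. Psmb8 rose from 3 to 12 months by 1.60 (SE 0.35, adjusted p = 0.0237), and the change from 6 months was 1.48 (SE 0.35, adjusted p = 0.0887). Without the APP libraries of 12 months its mean was 0.758, below 1, so Psmb8 entered the test through that group. The Ctrl libraries of 6 months were at 2.29, 0.16 and 0.256, so a low gene could differ several-fold between mice of 1 group. Psmb9 stood at 3.62, 2.25 and 1.65 in APP and 1.37, 0.717 and 1.15 in Ctrl mice of 12 months. It was 0.44, 0.26 and 0.312 in APP mice of 3 months and 0.855, 0.938 and 0.0803 in those of 6 months. Psmb9 did not reach the mean of 1 needed for the test; in the fit without this filter its log2 change was 0.73 (SE 0.29, adjusted p = 0.62) against Ctrl and 1.35 (SE 0.29, adjusted p = 0.0412) from 3 to 12 months.

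Set against the constitutive subunit that each replaces, Psmb8 made up 5.67% ± 2.262 (SD, n = 3) of Psmb8 plus Psmb5 in APP mice of 12 months and 1.93% ± 0.326 (SD, n = 3) in Ctrl mice. Psmb9 made up 4.38% ± 1.3 (SD, n = 3) of Psmb9 plus Psmb6, against 1.85% ± 0.633 (SD, n = 3). Both pairs of groups were apart. The inducible subunit Psmb10, which replaces Psmb7, made up 14.6% ± 3.57 (SD, n = 3) and 14.9% ± 0.662 (SD, n = 3), with overlapping groups. Psmb5 ranged from 54.0 to 64.2 scaled TPM in APP and from 55.4 to 67.4 in Ctrl mice of 12 months, so the constitutive forms were far above the inducible ones in both.

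**Figure D2:**
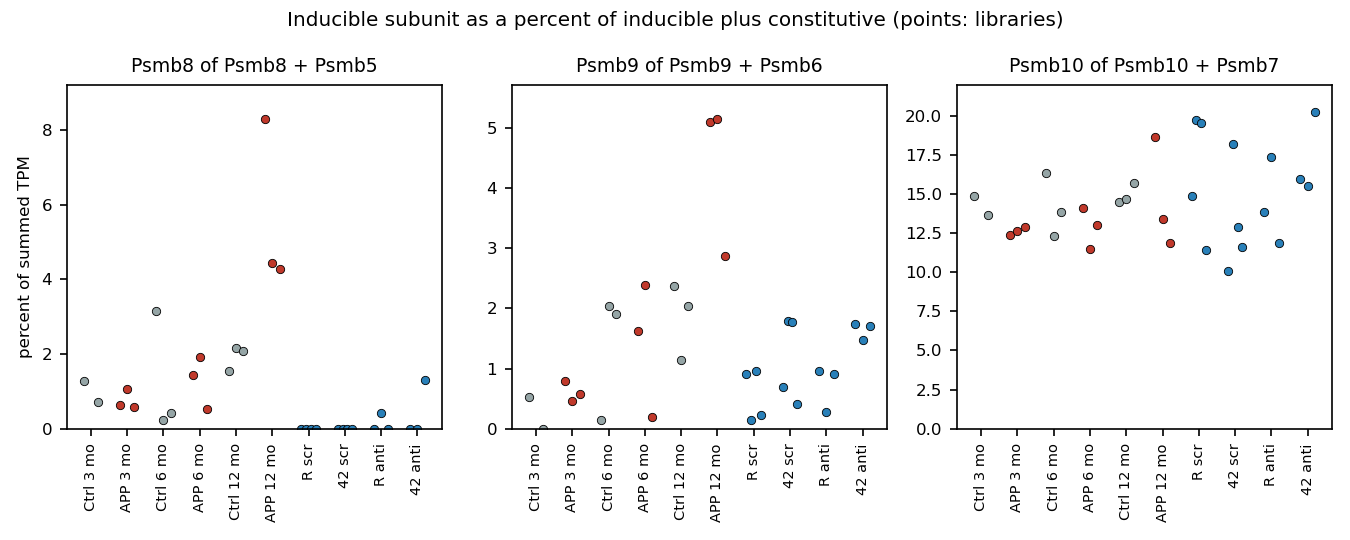
Inducible proteasome subunit as a percent of inducible plus constitutive TPM (vertical axes from 0), for Psmb8, Psmb9 and Psmb10; each point is a library of a mouse group (age in months, mo) or of HT-22 cells (peptide R or 42 with scramble, scr, or anti-HSF1, anti). APP mice of 12 months are highest for Psmb8 (4.29% to 8.28%) and Psmb9 (2.88% to 5.15%), and their Psmb10 share overlaps that of Ctrl mice.

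Nlrc5, the activator of class I genes, was the lowest member in hippocampus. It stood at 1.93, 0.976 and 0.797 scaled TPM in APP mice of 12 months, above every other hippocampus library, and at 0.135, 0.258 and 0.147 in Ctrl mice of that age, a 6.85-fold difference of low means (read depth 0.380 to 1.03 and 0.0291 to 0.142). In APP mice it was 0.093, 0.0416 and 0.149 at 3 months and 0.126, 0.344 and 0.0413 at 6 months. It did not reach the mean of 1 for the test. In the fit without the filter the log2 change was 0.89 (SE 0.16, adjusted p = 0.0381) against Ctrl, 1.00 (SE 0.16, adjusted p = 0.0093) from 3 and 0.91 (SE 0.16, adjusted p = 0.0445) from 6 months, so that Nlrc5 rose in that fit.

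Over the members together, 7 of the 9 passed the filter in hippocampus. At 12 months 1 of these 7 (H2-D1) was called between APP and Ctrl mice, where 0.433% of the 17767 tested genes were called and 0.411% called higher. All 7 changes were positive with an unadjusted p below 0.05, which 1249 of the 17767 tested genes had in either direction. The members' median log2 change was 1.00 against -0.0048 for all genes. Psmb8 and Tap1 passed the filter through the APP group of 12 months, so these counts are a description. Of all 9 members, 8 lay in each APP library of 12 months above each Ctrl library of that age. This held for 8.62% of tested genes, which do not include Psmb9 and Nlrc5. The same 8 lay above all 14 other hippocampus libraries; of the 7 tested members this was 6, and of all tested genes 1.23%. From 3 to 12 months in APP mice 6 of 7 rose (Tapbp did not pass; without Psmb8 and Tap1, 4 of 5), against 3.27% of genes called in either direction and 1.9% called higher, and from 6 to 12 months 3 of 7 rose (H2-K1, H2-D1, B2m), against 0.54% and 0.518%. All 9 lay above both younger APP groups, as did 11.3% and 10.7% of tested genes. The comparisons share the APP libraries of 12 months and are not independent of each other.

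APP replicate 1 of 12 months was the highest library in 8 of the 9 members, with Tap2 highest in replicate 2. Without it no member was called against Ctrl or against 6 months: the log2 change against Ctrl was 1.22 (adjusted p = 0.178) for H2-D1, 0.92 (adjusted p = 0.239) for H2-K1 and 0.90 (adjusted p = 0.403) for B2m. From 3 to 12 months 4 members (H2-K1, H2-D1, B2m, Tap2) were still called without it, and Tap1 and Psmb8 were below the filter. Over the same ages H2-D1, H2-K1, B2m and Tap2 were called with each of the 17 libraries left out in turn (log2 changes from 1.61 to 2.09, 1.35 to 1.96, 1.36 to 1.69 and 0.72 to 0.85). Tap1 and Psmb8 were tested in 16 of these fits. Of those 16 the Tap1 call was lost in 7 (adjusted p up to 0.102) and the Psmb8 call in 3 (up to 0.0613). From 6 to 12 months the call was lost in 5 of the 17 fits for H2-D1 (each APP library of 12 months, and APP replicates 1 and 3 of 6 months), in 7 for B2m and in 13 for H2-K1, with adjusted p up to 0.172, 0.177 and 0.203. The H2-D1 call against Ctrl was also lost on leaving out any other library of that contrast (log2 changes from 1.22 to 1.70), in a fit with a replicate block (adjusted p = 0.0547), in the fit without the filter on low values (adjusted p = 0.059) and in a fit of those 6 libraries alone (adjusted p = 0.0709).

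**Figure D3:**
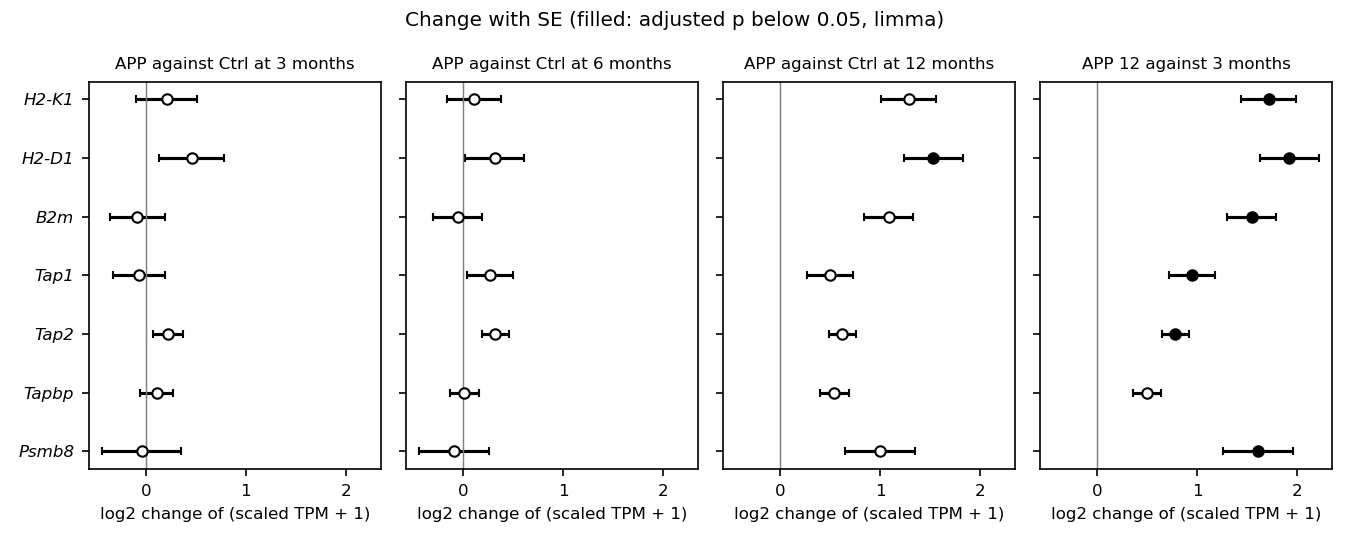
Log2 change of scaled TPM + 1 with its SE (horizontal axis) for the 7 tested genes in 4 contrasts; a filled point is called by limma at an adjusted p below 0.05. At 12 months all points lie right of 0 and H2-D1 is filled; from 3 to 12 months in APP mice 6 are filled.

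At the earlier ages no tested member was called between strains. At 3 months 0.304% of tested genes were called and the members' log2 changes ran from -0.09 (B2m) to 0.46 (H2-D1). No member was at an unadjusted p below 0.05, where 2378 of the 17767 tested genes were. H2-K1, H2-D1, Tap2 and Psmb9 lay higher in each APP than in each Ctrl library of 3 months, 4 of 9, where 13.8% of tested genes did, with 2 Ctrl libraries. Of these 4, Psmb9 is not among the tested genes and was listed at 0 in Ctrl replicate 2. Some marker sums were apart there too. Hippocampal markers summed to 79.9 to 166 in APP and 201 to 209 in Ctrl mice, and astrocyte markers to 751 to 935 and 994 to 1016. Higher in APP were blood markers (149 to 225 and 73.8 to 88.2, 1 of 5 called) and oligodendrocyte markers (1359 to 2241 and 1207 to 1313). Microglial and class II sums overlapped. The part of these cells was not tested. At 6 months 1.71% of genes were called, and changes ran from -0.09 (Psmb8) to 0.32 (Tap2 and H2-D1). Tap2 was the 1 member at an unadjusted p below 0.05, where 3022 of the 17767 tested genes were. Tap2 alone had groups apart (11.1% of genes did), and without APP replicate 2 the log2 change of H2-K1 became -0.20 and that of H2-D1 -0.04. In Ctrl mice from 6 to 12 months 0.0% of genes were called by limma (1215 of 17767 had an unadjusted p below 0.05), 1 member (Tap1) had an unadjusted p below 0.05, and Tap1, Tap2 and Nlrc5 had groups apart and higher at 12 months (6.05% of genes).

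Whether the strain change differs between ages was tested with an F test over the 3 ages. No member was called (0.467% of genes were). Unadjusted p was below 0.05 for 4 of 7: B2m (adjusted p = 0.147), H2-K1 (0.202), H2-D1 (0.224) and Tapbp (0.304, adjusted p in each case). Of all 17767 tested genes 2847 had an unadjusted p below 0.05 in this F test. The strain change at 12 months exceeded that at 3 months by 1.176 for B2m, 1.08 for H2-K1 and 1.08 for H2-D1 on the log2 scale.

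The order of group means was led by APP of 12 months in each of the 9 genes, and apart from the next group in 8. Ctrl of 12 months came next in 6 genes, APP of 6 months in H2-D1 and Tap2, and APP of 3 months in Tapbp. Neighbours below the top overlapped in all genes, except that APP of 3 months lay apart from Ctrl of 3 months in H2-K1, H2-D1 and Psmb9.

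A list of 43 further genes of class I presentation and its control was examined in the same fits; 39 were tested in hippocampus. In the strain contrast at 12 months 1 of the 39 rose and none fell, where 0.411% of all tested genes were called higher. The gene was Irf8, an interferon regulatory factor of myeloid cells, with a log2 change of 1.37 (SE 0.26, adjusted p = 0.0281 by limma). It stood at 5.68 to 10.3 scaled TPM in APP and 1.5 to 3.43 in Ctrl mice. Of all tested genes 1.9% were called higher from 3 to 12 months in APP mice, and of the 39 in the list 4 rose and none fell. These were Irf8 again, with a log2 change of 1.56 (SE 0.26, adjusted p = 0.00517), and Irf1, a factor that activates class I promoters, with 0.89 (SE 0.23, adjusted p = 0.0472). The others were the nonclassical heavy chain genes H2-M3, with a log2 change of 0.91 (SE 0.23, adjusted p = 0.0472), and H2-Q4, with 1.59 (SE 0.34, adjusted p = 0.0205). H2-M3 ran from 2.37 to 2.78 in APP mice of 12 months and from 0.554 to 1.87 at 3 months, and H2-Q4 from 1.89 to 6.29 and 0.232 to 0.534. Both reached the mean of 1 for the test through the APP libraries of 12 months (means of 0.674 and 0.537 over the other 14), so these counts are a description; over the 37 genes that reached it without that group the number from 3 to 12 months is 2, Irf8 and Irf1. From 6 to 12 months the 1 called gene was H2-M3, with a log2 change of 1.26 (SE 0.23, adjusted p = 0.031 by limma), where 0.518% of all tested genes were called higher. H2-M3 is among those that entered through that group. At 6 months between strains 1 of the 39 fell, the constitutive proteasome subunit Psmb7, with a log2 change of -0.54 (SE 0.13, adjusted p = 0.0466 by limma). Of all tested genes 1.71% were called in that contrast and 1.28% called lower. The list's count there was 0 in 13 of the 17 fits that left out 1 library. Without APP replicate 1 of 12 months none was called at 12 months or from 6 to 12 months, and 1 from 3 to 12 months. None was called at 3 months, in Ctrl mice or in the interaction. The list's median log2 change was 0.14 at 12 months between strains and 0.16 from 3 to 12 months, against -0.0048 and 0.0076 over all genes.

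Markers of several cell types moved with these results. The summed scaled TPM of 8 microglial markers was 287 to 348 in APP and 136 to 157 in Ctrl mice of 12 months, with 3 of 8 called higher, and that of 7 genes of plaque-associated microglia was 119.7 to 172 and 37.5 to 39.3, with 4 of 7 called. For 5 genes of MHC class II cells it was 35.5 to 189.6 and 4.43 to 9.22 (1 of 4 tested called), and for 10 interferon-stimulated genes 69.1 to 102 and 45.0 to 51.7 (1 of 8 tested called). The sum of 6 endothelial markers was 30.8 to 36.3 and 16.6 to 27.4 with none called, and 5 choroid plexus markers summed to 1412 to 1632 and 418 to 1293 with none called. In APP mice of 3 months the sums were 123 to 133 (microglia), 25.0 to 32.7 (plaque-associated), 2.65 to 4.3 (class II) and 33.1 to 42.0 (interferon-stimulated); from 3 to 12 months 4 of 8, 7 of 7, 4 of 4 tested and 4 of 8 tested were called higher, and 4 of 5 oligodendrocyte markers were called lower (1359 to 2241 at 3 and 944 to 1060 at 12 months). Over the same ages astrocyte markers summed to 751 to 935 and 1363 to 1532 (1 of 6 called higher) and the 4 hippocampal markers to 79.9 to 166 and 174 to 198 (none called), in both cases with groups apart. In APP mice of 6 months the sums were 114 to 214 (microglia), 31.2 to 90.6 (plaque-associated), 5.25 to 19.6 (class II) and 35.9 to 54.0 (interferon-stimulated), all below those of 12 months, with 3 of 8, 3 of 7, 2 of 4 tested and 1 of 8 tested called higher. Endothelial markers (20.7 to 24.0 at 6 months), 5 blood markers (90.7 to 137 against 151 to 182) and choroid plexus markers (35.4 to 898) were also below all libraries of 12 months, with none called. Between strains at 12 months astrocyte markers summed to 1363 to 1532 and 1016 to 1063, with 1 of 6 called. The 7 measured T and NK cell markers of 8 summed to at most 0.847 in APP and 0.237 in Ctrl mice of 12 months, and Cd3d, Ncr1 and Nkg7 were listed at 0 in all of these.

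The libraries that stood out in class I genes stood out in these markers too. APP replicate 1 of 12 months had the highest class II sum at 189.6, against 42.6 and 35.5 in its group, and the highest microglial sum at 348. APP replicate 2 of 6 months had 214 for microglia, 90.6 for plaque-associated microglia and 19.7 for class II, above the other 2 of its group (at most 119.5, 32.7 and 6.40). The part of these cells in the class I differences was not tested.

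**Figure D4:**
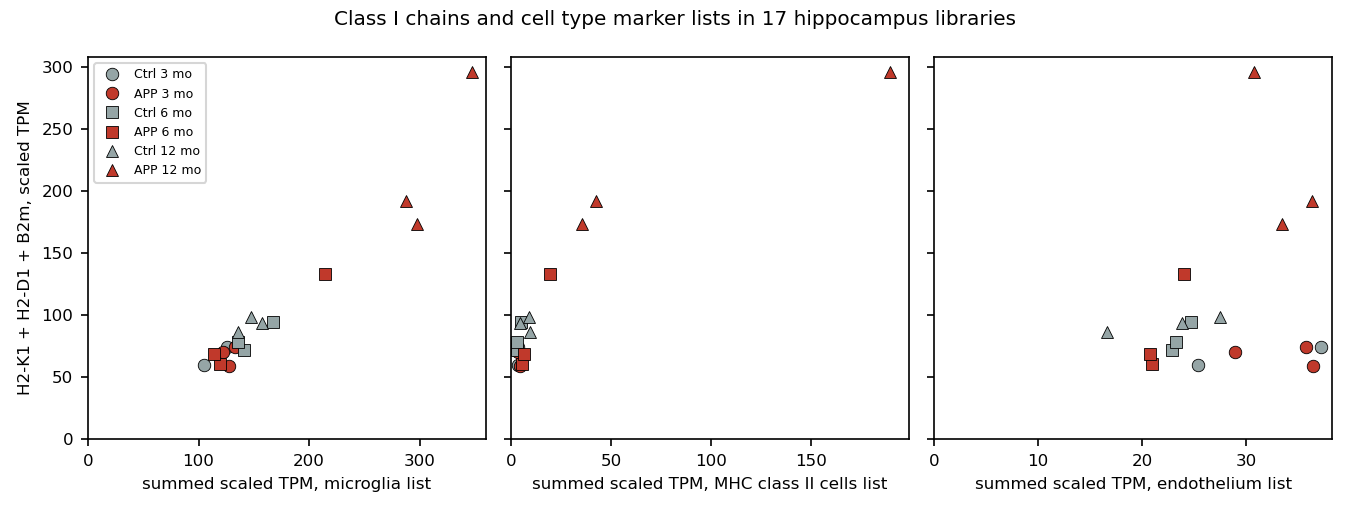
Sum of H2-K1, H2-D1 and B2m in scaled TPM (vertical axis) against the summed scaled TPM of microglial, MHC class II and endothelial marker lists (horizontal axes), 1 point for each of 17 hippocampus libraries. APP libraries of 12 months (red triangles) are highest on the vertical axis and on the microglial and class II axes, and APP replicate 2 of 6 months (red square) comes next; on the endothelial axis they do not stand apart from mice of 3 months.

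The 5 genes whose pattern over the 17 hippocampus libraries was most like the mean of the 7 tested members were C1qa, Ctss, H2-Aa, Naglu and Cd74, with Pearson correlations from 0.958 to 0.969. C1qa encodes a complement chain made by microglia, and ranged from 69.1 to 120 scaled TPM in APP mice of 12 months and from 12.1 to 38.7 elsewhere. Ctss encodes the lysosomal protease cathepsin S (109 to 142 against 25.4 to 69.6). H2-Aa and Cd74 encode an MHC class II chain and its invariant chain (7.14 to 38.4 against 0.167 to 3.50, and 17.3 to 98.0 against 0.610 to 10.2), and Naglu a lysosomal enzyme (4.43 to 5.42 against 2.19 to 3.34). The libraries share their group structure, so the correlations describe these libraries.

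HT-22 cells expressed part of the set. H2-D1 ranged from 126 to 189.5 scaled TPM over the 14 libraries, B2m from 194 to 364, Tapbp from 145 to 187, Tap2 from 28.4 to 38.0 and Tap1 from 6.85 to 14.4. H2-K1 was listed at 0 in 9 of 14 libraries and reached 0.949 at most. Psmb8 was listed at 0 in 12 of 14 (highest 0.469), Nlrc5 reached 0.1995, and Psmb9 ranged from 0.156 to 3.10. No source here states the H2 haplotype of the line, and heavy chain sequences differ between haplotypes; whether transcripts of another allele would be counted under H2-K1 was not tested. After scaling both systems jointly over 14020 genes, the HT-22 median was 7.32 times the hippocampus median for H2-D1, 7.39 for Tap2, 7.76 for Tapbp, 6.31 for Tap1, 2.25 for B2m and 0.755 for Psmb9. These are levels in different material and were not tested. Class II genes H2-Aa, H2-Ab1 and H2-Eb1 and the microglial genes P2ry12, C1qa and Itgam were listed at 0 in all HT-22 groups. Among the list of further genes, chosen after their values were seen, H2-T10 ranged from 7.22 to 12.6 in HT-22 cells and up to 0.438 in hippocampus, and H2-Q4 was listed at 0 in all HT-22 libraries.

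**Figure D5:**
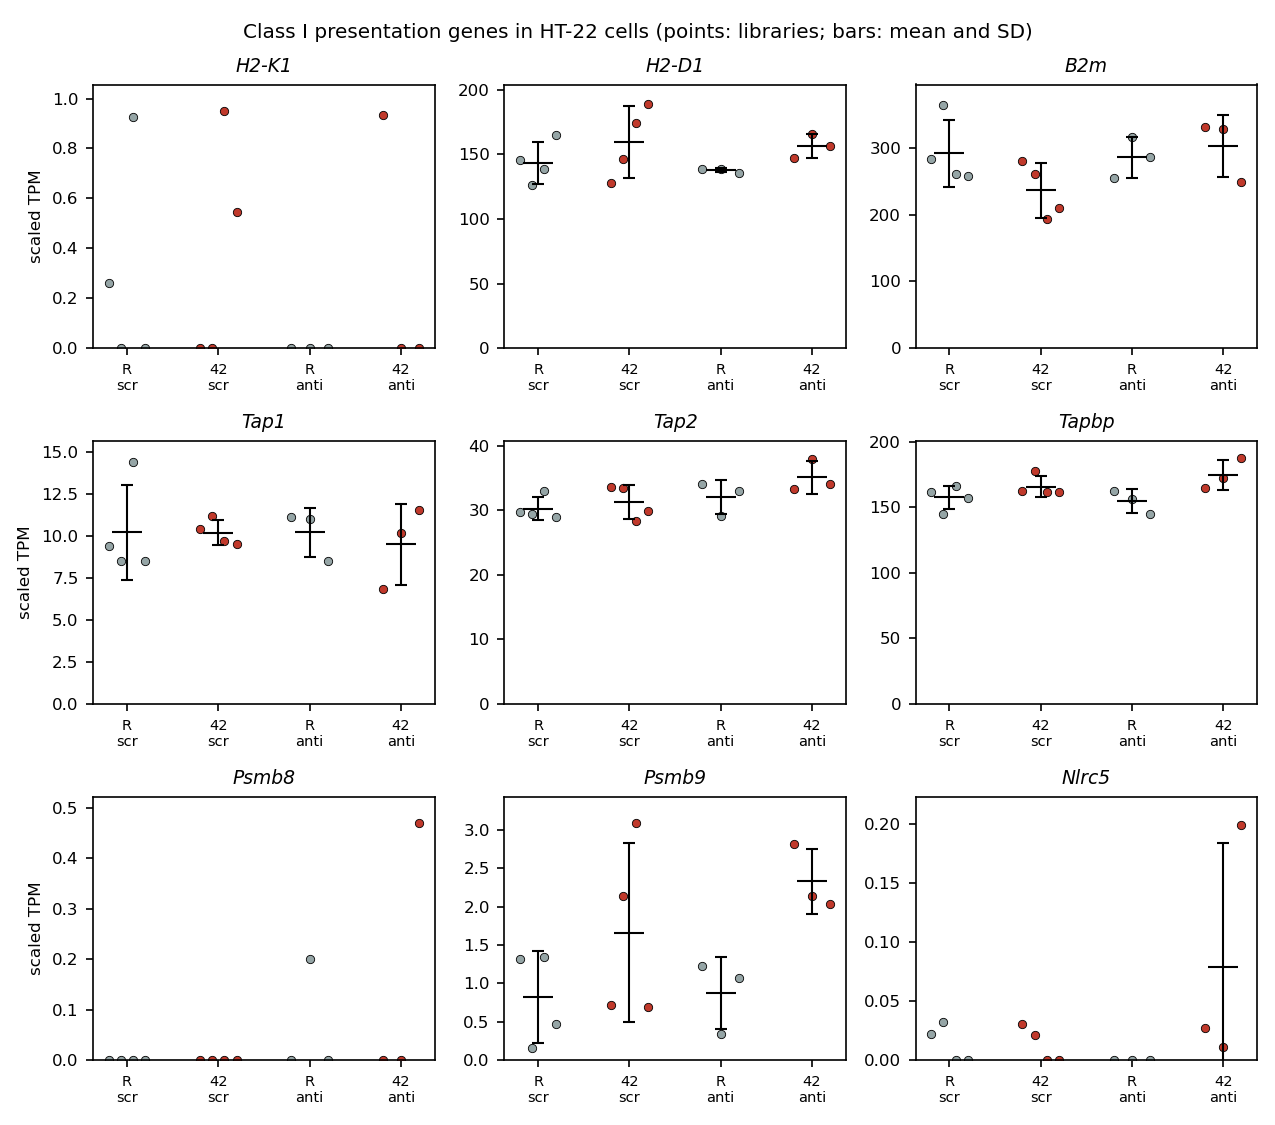
Scaled TPM of the 9 genes (vertical axes from 0, 1 panel a gene) in each HT-22 library, by peptide (R or 42) and LNA (scr, scramble; anti, anti-HSF1). Points are libraries, red for peptide 42 and grey for peptide R; bars give mean and SD where no library is at 0. Groups overlap in most panels, and H2-K1, Psmb8 and Nlrc5 are listed at 0 in many libraries.

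Of the HT-22 libraries 3 stood apart in marker sums, all with scramble LNA: replicates 3 and 4 with peptide 42 and replicate 4 with peptide R. Their sums over the genes of plaque-associated microglia, nearly all of it Axl, a receptor tyrosine kinase, were 196 to 204 scaled TPM, against 84.4 to 99.4 in the other 11, and those over microglial markers 77.0 to 78.6 against 34.8 to 43.6. They held the lowest B2m values of their groups.

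The treatments of HT-22 cells were compared in 4 contrasts and their interaction. Hsf1, the gene that the anti-HSF1 LNA is named for, was 47.2 ± 4.07 (SD, n = 3) with anti-HSF1 and 61.6 ± 9.31 (SD, n = 4) with scramble under peptide 42, and 48.2 ± 4.81 (SD, n = 3) and 53.8 ± 7.89 (SD, n = 4) under peptide R. Neither difference was called (log2 change -0.37, adjusted p = 0.52, and -0.15, adjusted p = 0.959), so the targeted transcript does not check the labels. Of the members 6 passed the filter, and none was called in any contrast. Over all 17224 tested genes 0.0% were called in both peptide contrasts, in anti-HSF1 against scramble under peptide R and in the interaction, and 0.0232% in anti-HSF1 against scramble under peptide 42. In the contrasts without a call by limma, 621 to 892 genes had an unadjusted p below 0.05.

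Under scramble, peptide 42 and peptide R gave overlapping values in every member, and 0.935% of tested genes lay higher in each library with 42. H2-D1 stood at 128, 147, 174 and 189.5 with peptide 42 and 145, 126, 138 and 165 with R, a log2 change of 0.14 (SE 0.12, adjusted p = 0.954). B2m stood at 281, 260.4, 194 and 209.8 and 283, 364, 261 and 258, a log2 change of -0.30 (SE 0.16, adjusted p = 0.954). Tap1 ranged from 9.53 to 11.2 and from 8.499 to 14.4, Tap2 from 28.4 to 33.7 and from 28.9 to 33.0, and Tapbp from 161 to 178 and from 145 to 166. No member had an unadjusted p below 0.05.

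Under anti-HSF1, H2-D1, Tapbp, Psmb9 and Nlrc5 had groups apart and higher with peptide 42, 4 of 9, where 8.74% of tested genes did. Of these 4, Nlrc5 is not among the tested genes. H2-D1 stood at 147, 166 and 156 with peptide 42 and 139, 139 and 136 with R, and Tapbp at 165, 172 and 187 and 163, 157 and 145. Psmb9 stood at 2.81, 2.14 and 2.04 and 1.22, 0.339 and 1.065, a log2 change of 0.85 (SE 0.39, adjusted p = 1.0), the 1 member at an unadjusted p below 0.05. Nlrc5 was listed at 0 in the 3 R libraries and at 0.0108 to 0.1995 with peptide 42. With TPM as deposited the log2 changes of H2-D1, Tapbp, Tap2 and B2m in this contrast turned negative (-0.41, -0.41, -0.44 and -0.51, all uncalled), where the median of all genes moved to -0.52.

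Between LNAs under peptide 42, B2m stood at 331, 328 and 248.7 with anti-HSF1 and 281, 260.4, 194 and 209.8 with scramble, a log2 change of 0.36 (SE 0.17, adjusted p = 0.549), with overlapping groups; no member lay higher in each library with anti-HSF1, where 4.38% of genes did. The log2 changes of the other 5 tested members ran from -0.12 (Tap1) to 0.42 (Psmb9), none at an unadjusted p below 0.05. Under peptide R the members' log2 changes ran from -0.05 (H2-D1) to 0.08 (Tap2), and none was apart, where 3.15% of genes lay higher in each anti-HSF1 library. In the interaction test none of the 6 was called, with log2 differences between the peptide changes from -0.14 (Tap1) to 0.38 (B2m).

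Interferon-stimulated genes summed to 135 to 137 with anti-HSF1 and 73.1 to 116 with scramble under peptide 42, and to 121 to 130.4 and 80.6 to 107 under peptide R. These groups were apart, and 0 of the 10 tested genes were called in either contrast (median log2 change 0.55 and 0.40). With the 3 scramble libraries of high Axl left out together, an alternative chosen after seeing the data, no member and none of the 36 further genes tested was called in any HT-22 contrast. The log2 change of B2m between LNAs under peptide 42 was then 0.15 (adjusted p = 0.869), below the 0.27 to 0.49 found with each library left out in turn. The log2 change of B2m between peptides under scramble was -0.15 (adjusted p = 0.871) without them, against -0.39 to -0.19 with each library left out in turn. The part of these libraries and markers in the B2m differences was not tested beyond these fits.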

How the data were processed

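Long RNA was measured in 31 of the 62 libraries of the series, after removal of ribosomal RNA per the labels' protocols. The tables used hold, per the file headers, 1 row per gene ID with coverage, FPKM and TPM; the submitters' processing notes name HISAT2 2.1.0, BWA 0.7.17, StringTie 1.3.4d, cutadapt 1.18, bedtools 2.26.0, FastQC and the builds mm10 and GRCm38, without their roles. The TPM deposited by the authors was the measurement. For each gene ID the deposited coverage was divided by the deposited FPKM, and the most frequent rounded ratio in a library gave its relative depth. Read numbers are unknown, so no counting interval is given. TPM keeps no depth, and low genes carry the largest error.

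TPM was summed per gene ID and scaled in each system by the median of ratios (factors from 0.688 to 1.46 in hippocampus and 0.639 to 1.23 in HT-22). limma (trend and robust empirical Bayes) was run on log2(scaled TPM + 1) for genes with a mean of at least 1, in 1 fit for 17 hippocampus and 1 for 14 HT-22 libraries, with Benjamini-Hochberg adjustment over all tested genes and a threshold of 0.05. Fold changes of low genes are understated on this scale. p-values measure the spread between these libraries. The scripts were tested on simulated data. Alternatives changed the scaling, pseudocount, filter, samples, weights, replicate block and each library in turn.

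The members and lists were chosen with earlier results of these data known. All 9 members are named, with genes of the further list that were called, and the 5 protein-coding genes most correlated with the mean of the tested members' standardised values in hippocampus. Small RNA libraries were not used here. Sequences are from RefSeq (GRCm38.p6), and 50-base words were computed from the GENCODE M21 transcripts. Gene overlaps were computed from the deposited gene coordinates. The GENCODE M21 gene models hold 53934 of the 53975 gene IDs. Software was Python 3.11.15, pandas 2.3.3, scipy 1.17.1, Biopython 1.88 and matplotlib 3.10.9.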

Additional observations from a re-analysis of the deposited data

Results flagged for a closer look

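In HT-22 cells 2 values stood far from the others of their group of 4, by the gap to the nearest library relative to the group's range (Dixon's test at the 95% level, run on 16 groups). Tap1 was at 14.4 scaled TPM in replicate 3 of peptide R with scramble LNA, where the other 3 libraries lay at 8.499 to 9.43. Tapbp was at 177.9 in replicate 2 of peptide 42 with scramble LNA, where the other 3 lay at 161 to 162. Chance marks about 1 in 20 groups, and hippocampus groups, with at most 3 libraries, were not examined in this way. Neither gene was called in a contrast that uses these libraries.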

How the results depend on the processing

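The limits are the depth, unknown in reads and low for Psmb8, Psmb9, Nlrc5 and Tap1, the 2 or 3 mice a group, the sex difference in the strain contrasts of 6 and 12 months, and the weight of APP replicate 1 of 12 months. In hippocampus all tested members kept a positive log2 change in APP mice of 12 months against Ctrl, 3 and 6 months under every alternative run. The number called moved as follows. The causes of these moves were not tested.

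At 12 months between strains 1 member was called; the number was 3 with TPM as deposited, 4 with array weights and 0 with a replicate block, and 0 to 3 with each library left out. It was 3 without APP replicate 2 of 6 months (H2-D1, H2-K1 and B2m). With no filter Nlrc5 was called (adjusted p = 0.0381 by limma) and H2-D1 was not. From 3 to 12 months in APP mice 6 were called. The number was 3 with a mean of at least 5, where Tap2, Tap1 and Psmb8 (means of 2.57, 1.075 and 1.27) were not tested. It was 2 with only the groups of the contrast, and 4 to 7 with each library left out. From 6 to 12 months 3 were called. The number was 0 with TPM as deposited, 0 with only the groups of the contrast, 5 with array weights, and 0 to 4 with each library left out. With no filter it was 1, Nlrc5 (adjusted p = 0.0445 by limma), and H2-K1, H2-D1 and B2m were not called. No member was called at 6 months (5 with TPM as deposited), in the strain by age interaction (3 with TPM as deposited, 0 to 1 with each library left out), in anti-HSF1 against scramble under peptide 42 (4 with TPM as deposited, 1 with array weights) or in the peptide by LNA interaction (2 with TPM as deposited).

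Of the 43 further genes, 1 was called at 6 months between strains; this was 21 with TPM as deposited, 0 with no filter, only the groups of the contrast or array weights, 2 with a replicate block, and 0 to 2 with each library left out. At 12 months 1 was called: 2 with TPM as deposited, 0 with a pseudocount of 0.1, a mean of at least 5, only the groups of the contrast or a replicate block, 3 with array weights, and 0 to 2 with each library left out. From 3 to 12 months 4 were called: 2 with TPM as deposited or quantile normalisation, 1 with a pseudocount of 0.1, 0 with a mean of at least 5 or only the groups of the contrast, and 1 to 3 with each library left out. From 6 to 12 months 1 was called: 0 with TPM as deposited, a pseudocount of 0.1, a mean of at least 5 or only the groups of the contrast, 2 with array weights, and 0 to 1 with each library left out. TPM as deposited gave 10 in the strain by age interaction, 10 in peptide 42 against R under anti-HSF1, 22 in anti-HSF1 against scramble under peptide 42 (5 with array weights) and 12 in the peptide by LNA interaction, where 0 were called.

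TPM as deposited moved the median log2 change of all genes to -0.16 at 3, 0.60 at 6 and 0.12 at 12 months between strains, -0.28 from 6 to 12 months in APP mice, 0.21 from 6 to 12 months in Ctrl mice, 0.29 in the strain by age interaction, 0.15 and -0.52 in peptide 42 against R under scramble and anti-HSF1, -0.62 in anti-HSF1 against scramble under peptide 42 and -0.68 in the peptide by LNA interaction. It called 10267 genes higher and 72 lower at 6 months (76 and 228 after scaling), 205 and 81 from 3 to 12 months (338 and 243), 7 and 4190 in peptide 42 against R under anti-HSF1, 26 and 8740 in anti-HSF1 against scramble under peptide 42 and 10 and 4369 in the peptide by LNA interaction. Over all genes, 77 were called at 12 months between strains (49 with a mean of at least 5, 149 with array weights), 581 from 3 to 12 months (386 with a mean of at least 5, 146 with only the groups of the contrast), 96 from 6 to 12 months (62 with quantile normalisation, 42 with a pseudocount of 0.1, 1 with only the groups of the contrast, 248 with array weights), 304 at 6 months (115 with no filter, 39 with only the groups of the contrast), 54 at 3 months (34, 4, and 15 with array weights) and 4 in anti-HSF1 against scramble under peptide 42 (1840 with array weights).

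The main fits did not pair samples by replicate number, and mice of a number are different animals. The correlation of deviations between libraries of 1 number ran from -0.148 to 0.227 (median -0.006) in hippocampus and from -0.216 to 0.575 (median 0.013) in HT-22 cells. Between libraries of different numbers it ran from -0.187 to 0.171 (median -0.007) and from -0.547 to 0.557 (median 0.002). Whether HT-22 libraries of a number belong together was not tested beyond these values and the replicate block. With the replicate block H2-D1 at 12 months had an adjusted p = 0.0547, and no member was called there.

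Signs turned in 88 of the members' log2 changes, 43 of them with a library left out, and 0 of these had been called. With TPM as deposited the values were in APP against Ctrl at 3 months (Tapbp -0.072), APP against Ctrl at 6 months (Psmb8 0.17 and B2m 0.65), Ctrl 12 against 6 months (Tapbp 0.21), peptide 42 against R, anti-HSF1 LNA (Tapbp -0.41, Tap2 -0.44, B2m -0.51 and H2-D1 -0.41), anti-HSF1 against scramble, peptide R (Tapbp 0.00911 and B2m 0.0157), anti-HSF1 against scramble, peptide 42 (Tapbp -0.64, Tap2 -0.54, B2m -0.36 and Psmb9 -0.0376), peptide by LNA interaction (Tapbp -0.65, Tap2 -0.65, B2m -0.38, H2-D1 -0.71 and Psmb9 -0.12). With replicate block the values were in APP against Ctrl at 3 months (Psmb8 0.0771), anti-HSF1 against scramble, peptide R (Tap1 -0.0249, H2-D1 0.0259 and Psmb9 -0.0609), anti-HSF1 against scramble, peptide 42 (H2-D1 0.0637). With median of ratios over protein-coding genes the values were in APP against Ctrl at 6 months (Tapbp -0.00295), anti-HSF1 against scramble, peptide 42 (H2-D1 0.00606). With array weights the values were in APP against Ctrl at 6 months (Tapbp -0.00479), peptide 42 against R, scramble LNA (Tap2 -0.0253 and Tap1 -0.0697), anti-HSF1 against scramble, peptide R (Tap1 -0.0492, B2m 0.00394 and Psmb9 -0.15), peptide by LNA interaction (H2-D1 -0.0896). With pseudocount 0.1 the values were in APP against Ctrl at 6 months (Psmb8 0.068). With quantile normalisation the values were in APP against Ctrl at 6 months (B2m 0.0372), peptide 42 against R, anti-HSF1 LNA (B2m -0.0371), anti-HSF1 against scramble, peptide R (Tapbp 0.12, B2m 0.0624 and H2-D1 0.0863), peptide by LNA interaction (Tapbp -0.0422 and H2-D1 -0.0949). With 3 scramble libraries left out together the values were in anti-HSF1 against scramble, peptide R (Tap1 -0.0451, H2-D1 0.016 and Psmb9 -0.00968), anti-HSF1 against scramble, peptide 42 (H2-D1 0.19). With each library left out, the ranges were as follows. In APP against Ctrl at 3 months values ran from -0.11 to 0.32 (Tapbp), from -0.23 to 0.14 (Psmb8) and from -0.29 to 0.11 (B2m). In APP against Ctrl at 6 months values ran from -0.0953 to 0.13 (Tapbp), from -0.36 to 0.39 (Psmb8), from -0.40 to 0.19 (B2m), from -0.20 to 0.27 (H2-K1) and from -0.0387 to 0.55 (H2-D1). In Ctrl 12 against 6 months values ran from -0.13 to 0.0989 (Tapbp). In peptide 42 against R, scramble LNA values ran from -0.0416 to 0.19 (Tap1). In peptide 42 against R, anti-HSF1 LNA values ran from -0.26 to 0.0836 (Tap1) and from -0.00446 to 0.21 (B2m). In anti-HSF1 against scramble, peptide R values ran from -0.0641 to 0.0214 (Tapbp), from -0.0451 to 0.19 (Tap1), from -0.0938 to 0.0919 (B2m), from -0.11 to 0.016 (H2-D1) and from -0.13 to 0.30 (Psmb9). In anti-HSF1 against scramble, peptide 42 values ran from -0.26 to 0.0801 (Tap1) and from -0.11 to 0.0736 (H2-D1). In peptide by LNA interaction values ran from -0.31 to 0.0554 (Tap1) and from -0.0624 to 0.13 (H2-D1).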

Other observations

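Over the 14 HT-22 libraries, the 5 protein-coding genes most like the mean of the 6 tested members were Thap11, Dact3, Gm6665, Miga2 and Ppp1r9b, with Pearson correlations from 0.844 to 0.890. None of them is among the 5 found in hippocampus. Thap11 encodes a zinc finger transcription factor and ranged from 18.2 to 29.3 scaled TPM, and Ppp1r9b encodes the scaffold spinophilin and ranged from 52.1 to 69.4. The libraries share their scaling and treatment groups, and these values describe the libraries. In HT-22 cells the share of the inducible subunit Psmb10 in Psmb10 plus Psmb7 ran from 10.1% to 20.2%, while Psmb8 was listed at 0 in 12 of 14 libraries.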
